A study of Rattus norvegicus with 12 samples.

Results

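Some regions of the rat genome had H3K23ac, acetylation of lysine 23 of histone H3, in each SIANK library but in no NC library, and lacked H3K27ac throughout. They were examined in CUT&Tag profiles of primary vascular smooth muscle cells (Rattus norvegicus). The regions were selected on the presence and absence of listed H3K23ac and H3K27ac peaks. The peaks of all 12 deposited lists were merged where they overlapped by 1 bp or more, which gave 23333 regions, and 364 of these met the rule. For each of H3K23ac, H3K27ac and H4K5ac there were 2 NC and 2 SIANK libraries. The labels give the cell type and these condition names only: they do not spell out NC or SIANK, and they name no strain, age, dose or time. They also do not say whether numbered libraries came from separate cultures or animals, so the spread between libraries may be technical. Peak positions hold no expression values, so the labelled cell type could not be checked against marker genes. The build of the coordinates is not given in the sources used here. It is not GRCr8, since 2696 of 94690 peaks on 15 chromosomes, and 11 of the 364 regions, lay beyond the last GRCr8 gene of their chromosome. Regions are therefore named by position as deposited, without genes or sequence.

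Acetylation of a histone lysine removes its positive charge and offers a docking site to bromodomain proteins. H3K27ac is written mainly by the p300 and CBP enzymes and marks active promoters and enhancers, while H3K23ac lies on the same histone tail and can be written by enzymes of the KAT6 family. H4K5ac is found at active genes and also on newly made histone H4. Vascular smooth muscle cells, the contractile cells of the arterial wall, can leave the contractile state and take up a dividing, matrix-producing one, a switch that involves wide changes in chromatin. In CUT&Tag an antibody tethers a transposase that cuts and tags the DNA next to the mark, and a peak is a stretch where such cuts pile up. The lists give the start, end and length of each peak but no height or read count. The depth of each library is unknown, and the absence of a peak means only that none was listed.

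The rule itself fixed where H3K23ac and H3K27ac were present, so the counts that follow describe the 364 regions and test nothing. H3K23ac lists held 12909 and 10720 peaks in NC libraries 1 and 2 and 14356 and 17141 in SIANK libraries 1 and 2, so the SIANK lists were the longer ones. H3K27ac lists held 2644 and 14034 peaks in NC and 4823 and 15413 in SIANK, with far longer lists in the libraries numbered 2. Among 21083 merged regions with H3K23ac, 1554 (7.37%) had it in both SIANK and neither NC library; these are called gained. Among the 5976 of them without H3K27ac, the same pattern held for 364, which is 6.09%. These 2 shares were close, but they are not over like sets of regions. A region in 1, 3 or 4 H3K23ac libraries cannot show the pattern. Regions in 1 library were 5046 of the 5976 and 7363 of the 21083. Those in 3 libraries were 145 and 2894 of these sets, and those in 4 were 20 and 7396. Among regions in exactly 2 libraries, the pattern held for 364 of the 765 without H3K27ac and for 1554 of all 3430.

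The SIANK pair was the most frequent pairing among H3K23ac regions that lacked H3K27ac and were found in exactly 2 libraries. There were 765 such regions, and the 364 made up 47.6% of them. The SIANK pair also led when H3K27ac was left aside, with 1554 of all 3430 regions in exactly 2 H3K23ac libraries. In the lists as deposited, its lead was therefore not particular to regions without H3K27ac. Among the 765, NC library 1 and SIANK library 2 shared 192. The libraries numbered 2 shared 91 and those numbered 1 shared 88. NC library 2 and SIANK library 1 shared 23, and the 2 NC libraries shared 7. The SIANK 2 list, the longest of all, took part in the 2 most frequent pairings.

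When every H3K23ac list was held to the 10720 longest of its peaks, as many as NC 2 listed, the SIANK pair held 62 regions of 212 (29.2%). The other pairings then held 43 (number 1), 37 (number 2), 30 (NC 1 with SIANK 2), 25 (NC 2 with SIANK 1) and 15 (both NC). Among these regions without H3K27ac, the SIANK pair was still the most frequent, by a smaller margin. With H3K27ac left aside it no longer led: NC 2 with SIANK 2 held 615 regions and the SIANK pair 501. Of the 62 regions without H3K27ac, 59 belonged to the 364. In 145 of the 364, neither SIANK peak was long enough to stay in the equal lists, and in 138 the SIANK 1 peak stayed but the SIANK 2 peak did not. Keeping the 10720 longest peaks removed SIANK 2 peaks below 661 bp but SIANK 1 peaks below 472 bp.

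**Figure D1:**
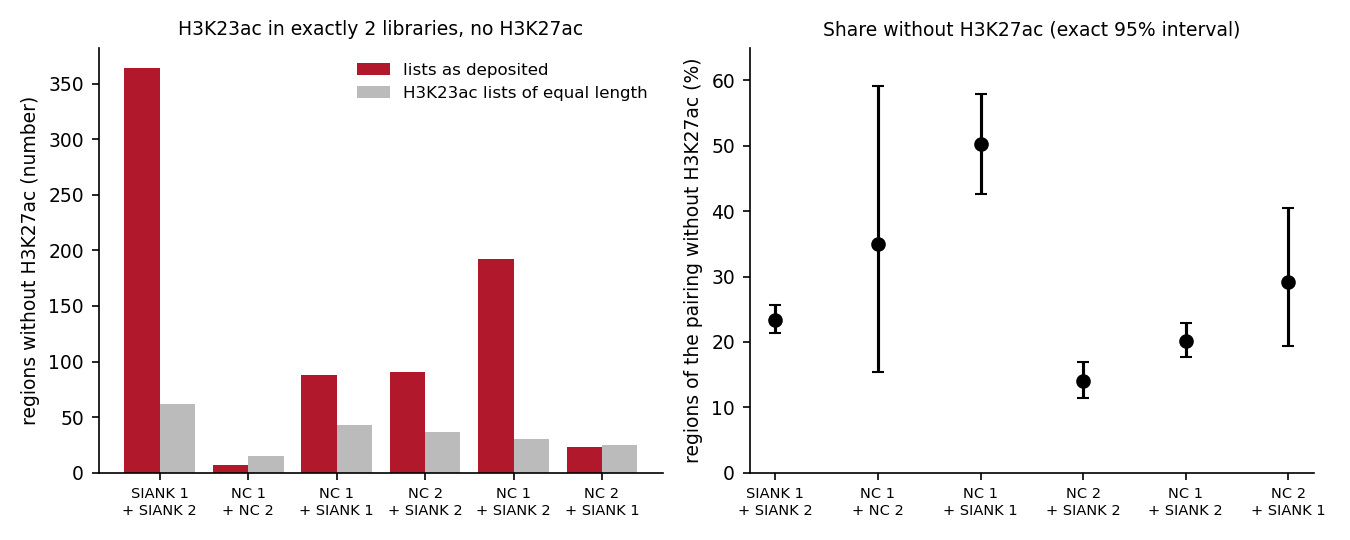
Left, number of H3K23ac regions without H3K27ac found in exactly the 2 libraries named on the x axis, from the lists as deposited (red) and with H3K23ac lists of equal length (grey). Right, percent of all regions of each pairing that lacked H3K27ac, with exact 95% binomial intervals. The SIANK pair has the most regions, 364 against 7 to 192, but its share without H3K27ac, 23.4%, lies within the range of the other pairings.

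The share of regions without H3K27ac differed widely between pairings, and the SIANK pair lay within their range. Of the 1554 regions of the SIANK pair, 23.4% lacked H3K27ac (exact Clopper-Pearson 95% interval 21.3 to 25.6, which covers counting error over regions only). The share was 50.3% (42.6 to 57.9) of the 175 regions of the number 1 pair and 14.0% (11.4 to 16.9) of the 649 regions of the number 2 pair. For NC 1 with SIANK 2 it was 20.1% (17.6 to 22.8) of 953 regions, for NC 2 with SIANK 1 it was 29.1% (19.4 to 40.4) of 79, and for both NC libraries 35.0% (15.4 to 59.2) of 20. The 5 other pairings together lacked H3K27ac at 401 of 1876 regions (21.4%, 19.5 to 23.3), a sum added after the single pairings had been seen. With H3K23ac lists of equal length, the share was 12.4% for the SIANK pair, 15.8% for the number 1 pair and between 5.36% and 7.37% for the other 4, and it was 7.72% (150 of 1943) for the 5 other pairings together. The SIANK pair then lay above 4 of the 5. With the upper 50% of each list by length it was 24.0% for the SIANK pair and 24.1% (279 of 1160) for the 5 others together, so the order of these values changed with the setting. No test was made of these differences. How many H3K23ac libraries held a region went along with a much wider range. H3K27ac was missing from 68.5% of the 7363 regions in 1 H3K23ac library, 22.3% of the 3430 in 2, 5.01% of the 2894 in 3 and 0.270% of the 7396 in all 4. Over all regions with H3K23ac the share was 28.3%.

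Leaving out a library drops 1 condition of the rule, so the number of regions could only rise or stay level. It rose most without a SIANK library of H3K23ac, where a peak in 1 SIANK library was enough. The next largest rises came without the H3K27ac libraries numbered 2. Without SIANK library 1 of H3K23ac, so that library 2 alone stood for SIANK, 1977 regions met the rule, and without SIANK library 2 there were 2089. Without SIANK library 2 of H3K27ac the number rose to 700, and without NC library 2 of H3K27ac to 522, whereas leaving out the number 1 libraries of H3K27ac gave 365 (NC) and 380 (SIANK). The 2 long H3K27ac lists thus removed more regions than the 2 short ones. The share of gained regions without H3K27ac moved when any of the following libraries was left out: it was 44.9% without SIANK 2 and 33.5% without NC 2 of H3K27ac, and 41.1% and 56.4% without SIANK 1 and SIANK 2 of H3K23ac. Without NC 1 and NC 2 of H3K23ac it was 17.4% and 14.9%. The SIANK pair's 47.6% of 2-library regions became 78.2% without NC 1 of H3K23ac, where only 3 lists remained to pair.

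H3K23ac peaks in the 364 regions were short for their lists. Where a region had 2 peaks of a library, as 4 regions had for SIANK 1 and none for SIANK 2, the longer peak was taken. In SIANK library 1 the peaks ran from 322 to 1516 bp with a median of 495.5 bp, against a median of 691 bp for the whole list. In SIANK library 2 they ran from 307 to 1388 bp with a median of 478 bp, against 830 bp. The typical peak of the 364 lay at percentile 28.5 of its list by length in SIANK 1 and at percentile 19.4 in SIANK 2. In 268 regions (73.6%) both SIANK peaks were at or below the median length of their lists, and in 13 (3.57%) both were above it.

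Neither SIANK library had the longer peaks at these regions: the SIANK 2 peak was longer in 182, the SIANK 1 peak in 181, and 1 pair was equal in length. The median log2 ratio of SIANK 2 over SIANK 1 length was 0.00445. At the 7396 regions with H3K23ac in all 4 libraries, median lengths were 989 bp in SIANK 1 and 1299 bp in SIANK 2. At the 1190 regions gained with H3K27ac in some library they were 546 and 615.5 bp. Regions gained without H3K27ac had shorter peaks than these sets in both SIANK libraries, but not than all other pairings without H3K27ac. For that comparison, peaks of a library were summed where a region had 2, which gave medians of 500 and 478 bp for the 364. The SIANK 1 median was 411 bp in the pairing with NC 1 and 516 bp with NC 2. The SIANK 2 median was 460.5 bp with NC 1 and 585 bp with NC 2. The 364 lay between these values in both libraries. The merged regions had a median length of 665.5 bp, and the other pairings without H3K27ac lay close to it, between 643.5 bp (NC 1 with SIANK 2) and 701 bp (NC 2 with SIANK 1). With only 1 SIANK library standing for the condition, the median region length was 438 bp (without SIANK 1) or 428 bp (without SIANK 2).

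**Figure D2:**
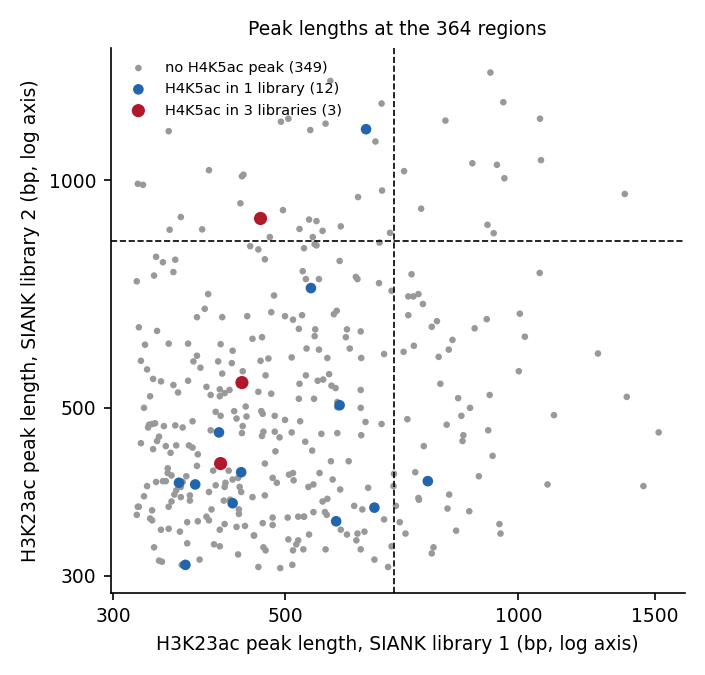
H3K23ac peak length in SIANK library 1 (x axis) and SIANK library 2 (y axis) at each of the 364 regions, in bp on log axes; the longer peak is plotted where a region has 2, and dashed lines mark the median length of each whole list. Most points lie in the lower left, below both medians, and the 15 regions with H4K5ac (coloured) are spread among the others.

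Among all gained regions, those with short peaks lacked H3K27ac most often. The 1554 gained regions were put in 4 equal groups by the lower of their 2 SIANK length percentiles. H3K27ac was missing from 36.9% (exact 95% interval 32.0 to 41.9) of the group with the shortest peaks and from 24.0% (19.8 to 28.5) of the next. The share was 19.3% (15.5 to 23.6) in the group after that and 13.6% (10.4 to 17.4) in the group with the longest peaks. The shares fell from each group to the next. H3K27ac counted as present at an overlap of 1 bp, and longer peaks have more room for such an overlap. The part of peak length itself in this fall was not tested.

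Since peaks had to merge, the rule itself kept the 2 SIANK peaks of a region close together. Their centres lay a median of 116.75 bp apart. The stretch covered by both peaks was a median of 56.8% of the stretch covered by either (quartiles 38.7% and 71.4%, lowest 0.579%), and it was at least 50% in 215 regions (59.1%). The same median was 60.5% for NC 1 with SIANK 2, 58.7% for the number 2 pair and 48.7% for the number 1 pair. The median of the SIANK pair was within the range seen for libraries of different conditions.

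The region with the longest peaks, ranked by the lower of the 2 length percentiles, was at chr3:150189892-150191500 (1609 bp). Its H3K23ac peaks were 1066 bp in SIANK 1 and 1206 bp in SIANK 2, and no other list had a peak there. It lay 47 bp from a region with H3K27ac that also had H3K23ac in all 4 libraries. The next was at chr20:30397311-30398730, with peaks of 956 and 1268 bp, 2157 bp from such a region. A region at chr3:8544473-8545860 had peaks of 920 and 1388 bp and lay 2423 bp from one. At chr1:134943397-134944814, the region had nearly equal peaks of 1069 and 1063 bp. The region chr9:43259172-43260611 had peaks of 938 and 1048 bp. These 5 regions were thus long in both SIANK lists, and all had a constant H3K23ac region as their nearest H3K27ac neighbour.

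The other 5 of the 10 top-ranked regions lay, with 1 exception, farther from the nearest region with H3K27ac than these. Such distances ran to the edge of the merged region, which a peak of another mark could set. At chr3:118609428-118610480, the region had peaks of 872 and 1053 bp and lay 15708 bp from a region with H3K27ac. Chromosome 6 held 3 of them: chr6:137753990-137755263 was 30593 bp away, chr6:52056004-52057202 was 63986 bp away, and chr6:107662407-107663351 was 1002 bp away. At chr18:54205746-54207116, the region had its longer peak in SIANK 1 (1371 against 959 bp) and was 35889 bp from a region with H3K27ac. The nearest region with H3K23ac in all 4 libraries was 1544334 bp away. None of the 10 had an H4K5ac peak. Their nearest H3K27ac region carried H3K23ac in all 4 libraries in 8 of 10 cases, against 145 of all 364 (39.8%). That share was 43.4% for the other pairings and 43.3% for all H3K23ac regions without H3K27ac, and 43.7% of all regions with H3K27ac carried H3K23ac in all 4 libraries.

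At the other end of the ranking stood peaks near the shortest that the lists contain. The region chr4:126241558-126242050 had peaks of 493 bp in SIANK 1 and 307 bp in SIANK 2, the shortest length in that list. In 2 regions the SIANK 1 peak was 322 bp, the shortest in its list. These were chr1:170410161-170411037, with a SIANK 2 peak of 735 bp, and chr1:116017518-116017878, with one of 361 bp. These regions met the rule by peaks at the lower limit of a list.

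H4K5ac was rare at the 364 regions. The rule asked for no H4K5ac peak to be present or absent, but H4K5ac peaks took part in the merging. Merging the H3K23ac lists alone also gave 364 regions. An H4K5ac peak of any library was found in 15 of them (4.12%, exact 95% interval 2.32 to 6.71), against 1.94% of all 5976 H3K23ac regions without H3K27ac. The share was 2.99% for the 401 regions of the other pairings (12 regions). Among H3K23ac regions without H3K27ac it was 1.72% of those in 1 H3K23ac library and 3.53% of those in 2. At the 1190 gained regions with H3K27ac it was 5.29% (63 regions), and over all H3K23ac regions 6.16%. The interval covers counting error over regions only, and regions are not replicates, so it is no test. It includes the shares of the other pairings, of the gained regions with H3K27ac and of all H3K23ac regions. The 1.94% of all H3K23ac regions without H3K27ac lies below it. That set includes the 364, and most of it was found in a single H3K23ac library. In 14 of the 15 regions the H4K5ac peaks included one of SIANK 2, the longest H4K5ac list.

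By library, H4K5ac was listed at 0 of the 364 regions in NC 1, which by 3 counts allows a share of up to 0.824% (the exact 95% interval ends at 1.01%), at 4 in NC 2, at 3 in SIANK 1 and at 14 in SIANK 2. The conditions overlapped, since NC 2 lay above SIANK 1. The mean was 8.5 ± 7.78 in SIANK and 2 ± 2.83 in NC (SD, n = 2 each), and the difference of 6.5 regions gave p = 0.667 when the 4 library labels were permuted exactly (two-sided, smallest possible p 0.33). The H4K5ac lists themselves held 100, 371, 468 and 1711 peaks in that order. As a share of its own list, H4K5ac at the 364 regions was 0%, 1.08%, 0.641% and 0.818%. The part of list length in these counts was not tested. Without SIANK 2 of H4K5ac the difference was 1, without SIANK 1 it was 12, without NC 1 it was 4.5 and without NC 2 it was 8.5. Within 5000 bp of a region, H4K5ac was listed for 1, 6, 6 and 26 of the 364 in the same order, a mean difference of 12.5 (exact permutation p = 0.667).

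**Figure D3:**
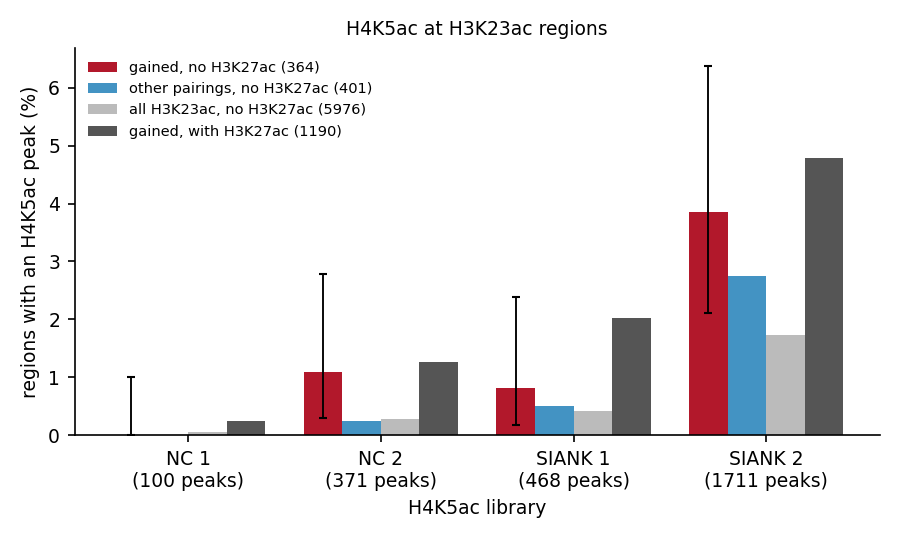
Percent of regions with an H4K5ac peak in each of the 4 H4K5ac libraries (x axis, with the number of peaks in each list), for the 364 gained regions without H3K27ac (red, with exact 95% binomial intervals) and 3 other sets of H3K23ac regions. In every set the share is highest in SIANK 2, the longest list, and lowest in NC 1, the shortest.

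Of the 15 regions, 11 had H4K5ac in SIANK 2 alone, 1 in NC 2 alone, and 3 in NC 2 and both SIANK libraries. Over all H3K23ac regions without H3K27ac, 1.64% had H4K5ac in at least 1 SIANK and no NC library and 0.301% had it in an NC library. At the 364 regions these shares were 3.02% and 1.10%. The region chr15:103938099-103939212 had an H4K5ac peak of 784 bp in NC 2, one of 648 bp in SIANK 1 and one of 908 bp in SIANK 2, beside H3K23ac peaks of 465 and 890 bp in SIANK 1 and 2. The region chr15:70318459-70319290 measured 641, 449 and 832 bp for H4K5ac in the same libraries, and had H3K23ac peaks of 440 and 540 bp. The region chr5:126555223-126556030 measured 362, 455 and 562 bp for H4K5ac, and had H3K23ac peaks of 413 and 422 bp. In these 3 regions H4K5ac was therefore listed in an NC library that had no H3K23ac peak there. These regions lay 6778, 79680 and 31899 bp from the nearest region with H3K27ac.

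Among the regions with H4K5ac in 1 library, the one with the longest H3K23ac peaks was at chr5:152814210-152815377. It had 636 and 1168 bp of H3K23ac in SIANK 1 and 2 and an H4K5ac peak of 515 bp in SIANK 2. The region chr10:50574103-50574975 had H3K23ac peaks of 540 and 720 bp and an H4K5ac peak of 386 bp in SIANK 2. It stood 903385 bp from the nearest H3K27ac region. Others, at chr17:85788589-85789218, at chr3:156758739-156759220 and at chr18:72425658-72426535, had H4K5ac peaks of 335, 320 and 507 bp in SIANK 2. The region with H4K5ac in NC 2 alone, chr14:100031446-100031934, is named after its values were seen.

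The distance from the 364 regions to the nearest region with H3K27ac varied widely. Measured from edge to edge, the nearest region with H3K27ac was a median of 11977.5 bp away, with quartiles of 3024 and 41232.5 bp. It was within 1000 bp for 46 regions (12.6%), within 5000 bp for 121 (33.2%) and beyond 100000 bp for 35 (9.62%). In the other pairings the median was 13901 bp (number 1), 15826 bp (number 2), 16132 bp (NC 1 with SIANK 2), 7809 bp (NC 2 with SIANK 1) and 8930 bp (both NC), and 30.2% to 42.9% lay within 5000 bp. The 364 regions were inside this range. A listed H3K27ac peak lay within 5000 bp of 17 of the 364 in NC 1, 98 in NC 2, 31 in SIANK 1 and 105 in SIANK 2. The share of regions differed between the H3K27ac libraries by their number, 4.67% and 8.52% in the libraries numbered 1 against 26.9% and 28.8% in those numbered 2. For the 401 regions of the other pairings the shares were 4.74%, 26.7%, 8.98% and 28.7% for NC 1, NC 2, SIANK 1 and SIANK 2.

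**Figure D4:**
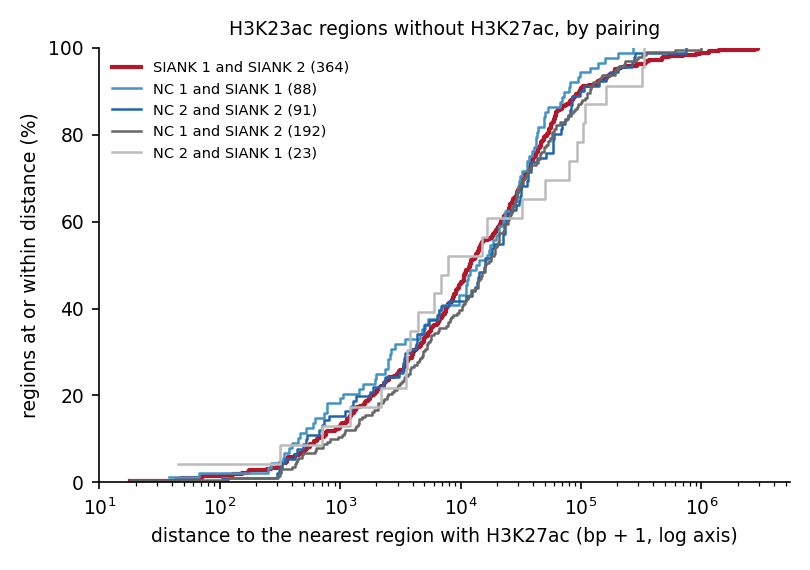
Cumulative percent of H3K23ac regions without H3K27ac that lie at or within a given distance of the nearest region with H3K27ac (x axis, bp plus 1 on a log axis), for the 364 regions of the SIANK pair (red) and 4 other pairings; the 7 regions of both NC libraries are left out. The red line runs among the others, with a median of 11977.5 bp.

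Distances to H3K23ac of NC cells were measured from edge to edge as well. The nearest region with an NC peak of H3K23ac was a median of 19517 bp away and within 1000 bp for 34 regions (9.34%). The nearest region with H3K23ac in all 4 libraries was a median of 40912 bp away, and within 1000 bp for 16 (4.40%). That median was between 24616 and 46011 bp in the other pairings. The nearest merged region of any kind was a median of 9468 bp away. It carried both H3K23ac and H3K27ac in 248 cases (68.1%), H3K23ac without H3K27ac in 78 (21.4%), H3K27ac without H3K23ac in 33 (9.07%) and H4K5ac only in 5 (1.37%). The same classes made up 64.7%, 25.6%, 7.53% and 2.11% of all 23333 merged regions.

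Regions just inside and just outside the rule were both found close to the limit. Closest to a region with H3K27ac was chr7:34109879-34110436, with H3K23ac peaks of 407 and 494 bp in SIANK 1 and 2 and such a region 17 bp away. A region at chr10:48563875-48564397 was 42 bp away, and one at chr5:76152009-76152557 was 45 bp away, from a region that also carried H3K23ac in all 4 libraries. Outside the rule, the gained regions with the least H3K27ac each held a single short H3K27ac peak of SIANK 2. These were peaks of 313 bp in the region chr9:70450240-70450858, 314 bp at chr1:167578681-167579602 and 316 bp at chr1:199246888-199247514. The shortest H3K27ac peak of SIANK 2 was 313 bp. With no H3K27ac peak allowed within 5000 bp, 245 of the 1554 gained regions (15.8%) would meet the rule.

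The 364 regions were scattered. The nearest other one was a median of 1556312 bp away, and no window of 100000 bp held more than 2. There were 14 such pairs, of which the closest had gaps of 11367 bp (chr10:13106762-13107773 and chr10:13119141-13119849) and 11383 bp (chr2:44127556-44127967 and chr2:44139351-44140139). The pair on chromosome 18 included the top-ranked region named above, with another 22869 bp before it. Together the 364 regions covered 0.268 Mb.

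They were found on chromosomes 1 to 20 and X, and the most were on chromosome 1, with 41 (11.3%, against 10.3% of all H3K23ac regions without H3K27ac). The share on chromosome X was 3.30% (12 regions), against 1.86% of all H3K23ac regions without H3K27ac, 1.50% of the other pairings and 1.01% of the gained regions with H3K27ac. On chromosome 4 it was 8.24% (30 regions) against 6.06%, and the gained regions with H3K27ac were close to it, at 7.98%. On chromosome 20 it was 4.12% (15 regions) against 2.83%, and the gained regions with H3K27ac had 3.53%. On chromosome 7 it was 3.85% (14 regions) against 6.44%. The other pairings had 8.98% there and the gained regions with H3K27ac 6.89%. No test was made of these shares, and the number of regions on most chromosomes was small.

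**Figure D5:**
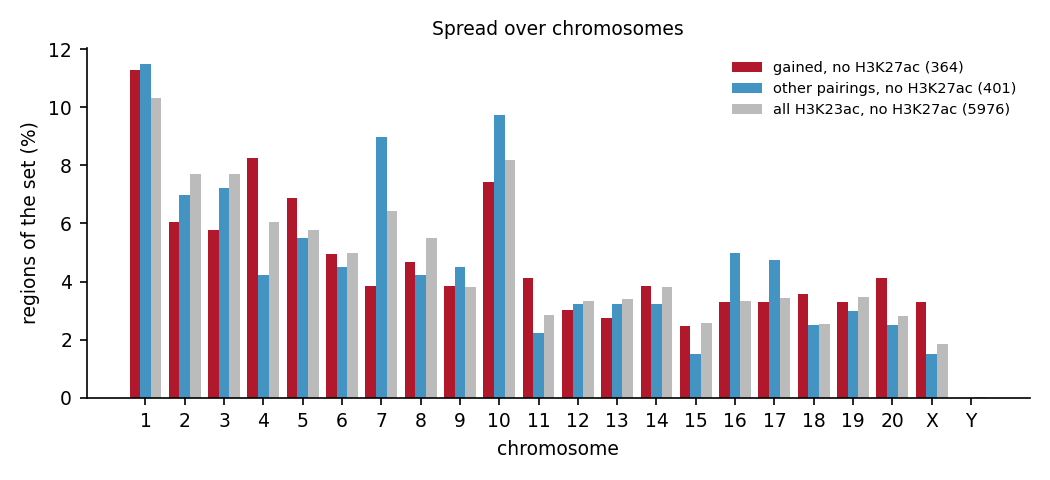
Percent of each set of regions on each chromosome (x axis), for the 364 gained regions without H3K27ac (red), the 401 regions of the other pairings (blue) and all 5976 H3K23ac regions without H3K27ac (grey). The red bars stand above both others on chromosomes 4, 11, 20 and X, for example, and below both on chromosome 7.

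The same ranking gave a top region for each of the other pairings. At chr1:221301886-221303416, the region had H3K23ac peaks of 1224 bp in NC 1 and 1329 bp in SIANK 2. At chr10:84162911-84164109, the region had peaks of 1127 bp in NC 2 and 1199 bp in SIANK 2. At chr17:19702424-19703885, the region had peaks of 916 bp in NC 1 and 993 bp in SIANK 1, and at chr20:12255868-12256621 the region had 754 bp in NC 2 and 682 bp in SIANK 1. Of the 7 regions of both NC libraries, the one with the longest peaks was at chr12:16340396-16342169, with 1774 bp in NC 1 and 735 bp in NC 2. A pair of libraries from different conditions could thus share a long H3K23ac peak, without H3K27ac, that was listed in neither of the other libraries.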

How the data were processed

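Each deposited list holds the chromosome, start, end and length of the peaks of 1 library, per the file headers, with positions counted from 1. BWA and deepTools are named in the submitters' processing notes. For the peak caller, its threshold, the control and the build, the name or value is not given in the sources used here. The IgG libraries were not analysed here. Peaks of the 12 lists were merged at an overlap of 1 bp or more; bedtools 2.31.1 gave the same 23333 regions. In simulated lists all 200 planted regions of each kind were recovered. This tests the counting only. The members and lists were chosen with earlier results of these data known. Named regions were the 10 members with the highest lower length percentile and the 3 with the lowest. They also included those with H4K5ac in 2 or more libraries, up to 5 with it in 1, the 3 nearest to and least past the H3K27ac limit, and top regions of other pairings. Groups and numbers came from sample titles. Alternatives were other merging, coverage, length and list-length rules, a replicate block and leaving out libraries. Python 3.11.15, pandas 2.3.3, numpy 2.4.6 and scipy 1.17.1 were used. The share of regions without H3K27ac summed over the 5 other pairings was added after the values were seen.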

Additional observations from a re-analysis of the deposited data

How the results depend on the processing

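No peak height or depth is given, so no limit on detection can be set. Of 67 values under alternatives other than the H4K5ac test, 33 stayed within 1.5 times the reported count or within the interval of the reported value, and 34 moved beyond that. The 14 alternatives of the H4K5ac difference gave 1 to 12.5, all above 0; no p there could pass 0.05, so the test says nothing of their stability. The number of regions was 186 when peaks below their mark's median length were dropped, 189 with the upper 50% of each list and 62 with lists of equal length, and leaving out each library of H3K23ac or H3K27ac gave 365 to 2089. The percent of gained regions without H3K27ac was 12.4 with equal lists (7.72 for the other pairings, against 24.0 and 24.1 with the upper 50% of each list), 15.8 with no H3K27ac within 5000 bp and 14.9 to 56.4 with a library left out. The SIANK pair's percent of the 2-library regions was 40.6, 40.4 and 29.2 under the same 3 settings as the number of regions, and 45.7 to 78.2 with a library left out. It could not be given without a SIANK library or within a replicate number. The cause of these changes was not tested beyond the fewer peaks or libraries that each setting leaves. With the replicate number as a block, 2069 regions (43.4%) had H3K23ac in SIANK 1 and not NC 1, and 2254 (32.9%) in SIANK 2 and not NC 2, without H3K27ac. The reverse counts were 1907 (54.0%) and 133 (41.3%), so within each number the share without H3K27ac was higher in the reverse direction. The H4K5ac difference of 6.5 had an exact permutation p of 0.5 in that block and 1 in blocks of crossed numbers, added after seeing the data because H4K5ac libraries of the same number deviated oppositely (correlation −0.22 over 1834 regions). The smallest p of either block is 0.5. For H3K23ac the correlation was 0.02 over 21083 regions and for H3K27ac 0.25 over 16864. The difference was 1 to 12 with an H4K5ac library left out.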
